A study of Mus musculus with 15 samples.

Results

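Tumour cells of wild-type (WT) mice that carried the surface protein CD34 were compared with those that lacked it, within the cells that bore a high level of integrin alpha 6 (a6). The comparison used the 3 WT a6-high CD34-positive and the 3 WT a6-high CD34-negative libraries, chosen by their labels, which are 6 of the 15 libraries of the series. The mice were C57BL/6 animals with no genetic change named, and skin tumours had been raised by DMBA and TPA given for over 24 weeks. DMBA damages DNA and so starts tumours, and TPA, a phorbol ester, drives their outgrowth. Tumour cells were sorted by flow cytometry, and their RNA was copied with a low-input kit before sequencing. The other libraries used below, 4 in number, were the matching sorts from C57BL/6 mice labelled SIRT6 KO (K14-cre; SIRT6 flox/flox), with 2 libraries per CD34 class and the same DMBA and TPA treatment. In these mice the Cre recombinase is driven by the K14 promoter, which is active in basal keratinocytes. The labels give neither age nor sex. Nothing in them ties a library to an animal of its own, and the p-values below therefore speak only of the spread between these libraries, which may be technical.

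CD34 is a cell-surface sialomucin found on bulge stem cells of mouse hair follicles and on endothelial cells. Integrin alpha 6 pairs with integrin beta 4 to bind laminin in hemidesmosomes, the contacts that hold basal keratinocytes to the basement membrane. Cells that carry both proteins have been studied in mouse skin carcinomas as a population able to start new tumours on transplantation, and the CD34-negative a6-high cells are their nearest neighbours in the sort.

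Levels are given as CPM, gene counts per 1000000 counts of a library after scaling, for replicates 1, 2 and 3 in that order. Cd34 (ENSMUSG00000016494) lay at 198, 161 and 209 CPM in the CD34-positive and at 18.6, 11.2 and 20.6 CPM in the CD34-negative libraries. The transcript thus followed the sorted protein in all 6 libraries, which checks the labels and is no finding. Itga6 (ENSMUSG00000027111), which encodes a6, lay at 562, 382 and 257 CPM in CD34-positive and at 386, 459 and 396 CPM in CD34-negative libraries, and the groups overlapped. The sign of its difference (log2 -0.05 ± 0.27 SE) turned when CD34-positive replicate 3 (0.17) or CD34-negative replicate 2 (0.03) was left out. Krt14, the keratin gene of basal keratinocytes, took 4.02% to 6.95% of the counts and was the most abundant gene in each of the 6 libraries.

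Depth was 13.28 to 21.56 M gene counts (M, counts in units of 1000000), and 16298 to 17888 genes had at least 1 count. CD34-positive replicate 1 (21.56 M) and CD34-negative replicate 2 (20.53 M) were deeper than the other 4 (13.28 to 14.96 M), and 4.05% and 4.18% of their alignment records lay outside genes, against 2.61% to 3.07%. These libraries, 1 in each group, are treated as standing apart below. Markers of T cells, adipocytes and erythroid cells summed to at most 0.529 CPM per library. Ptprc, the pan-leukocyte gene Cd45, was at 0.638 CPM or less, and the fibroblast genes Pdgfra and Col1a1 at 1.72 CPM or less.

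Of 12413 genes tested, 26 differed at an adjusted p under 0.05 (edgeR quasi-likelihood F test, Benjamini-Hochberg adjustment), which is 0.209% of the genes. Of these, 25 rose in CD34-positive cells (0.201%) and 1 fell (0.00806%). In the fit with the replicate number as a block, which compares CD34-positive with CD34-negative cells within same-numbered pairs, 127 genes passed (1.02%). They comprised 110 that were higher (0.886%) and 17 that were lower (0.137%), and they included all 26. An unadjusted p under 0.05 was reached by 10.2% of the genes (6.89% higher in CD34-positive cells). The folds of the 26 ran from 2.49 to 16. The 3 CD34-positive libraries did not overlap the 3 CD34-negative ones in any of the 26, whereas over all tested genes 9.23% were higher and 6.57% lower without overlap. The direction of each of the 26 therefore also held within the 2 libraries that stand apart and within the other 4. Without CD34-negative replicate 1 no gene passed in edgeR (1075 had an unadjusted p under 0.05), without CD34-negative replicates 2 or 3 the count was 2 or 4, and without CD34-positive replicate 3 it was 4. With a term for the 2 libraries that stand apart it was 6, namely Cd34, Cldn8, Aspa, Rhoc, Slc38a4 and Fah.

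**Figure D1:**
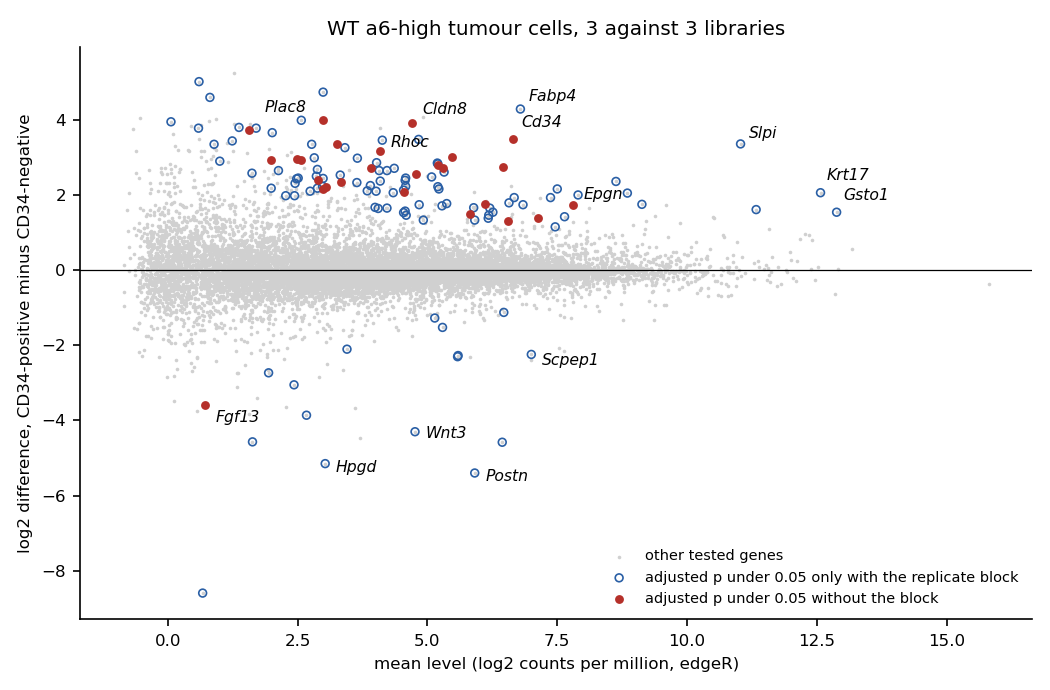
Each point is 1 of the 12413 tested genes, with its mean level (log2 CPM, horizontal) and its log2 difference, CD34-positive minus CD34-negative, in WT a6-high cells (vertical, 3 against 3 libraries). Filled red points are the 26 genes past an adjusted p of 0.05 without the replicate block, 25 of them above 0, and open blue circles those that passed only with it. The lowest circle is Cpxm2, which had 0 counts in all CD34-positive libraries, so its position is no estimate of size.

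The 12 largest rises among well-expressed genes took in junction, amino acid transport, glycosylation and lipid genes beside Cd34 itself. Cldn8 (ENSMUSG00000050520), which encodes a claudin of tight junctions, was at 75.5, 45.9 and 31.3 CPM in CD34-positive and at 3.47, 3 and 3.48 CPM in CD34-negative libraries. The lowest CD34-positive library was thus well above all CD34-negative ones, and Cldn8 rose 15.3-fold (log2 3.94 ± 0.35 SE, edgeR adjusted p = 0.00894). Rhoc (ENSMUSG00000002233), which encodes a small GTPase that acts on the actin cytoskeleton and cell motility, had the narrowest spread of the set. It lay at 34.9, 27.3 and 32.2 CPM against 3.54, 3.19 and 3.63 CPM, a 9.13-fold rise (log2 3.19 ± 0.23 SE, edgeR adjusted p = 0.00551). Plac8, which encodes a small cysteine-rich protein, was at 20.7, 10.6 and 14.6 CPM against 0.992, 0.286 and 1.66 CPM. Its rise of 16-fold was the largest among the 26 and close to the threshold (edgeR adjusted p = 0.0479).

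The next genes of the set encode 2 amino acid carriers and 3 enzymes. Slc38a4, a sodium-coupled amino acid transporter gene, was at 221, 140 and 115 CPM in CD34-positive and at 20.1, 27.7 and 22.5 CPM in CD34-negative libraries (6.78-fold, edgeR adjusted p = 0.0157). Slc7a8, which encodes an exchanger of neutral amino acids, was at 87.9, 37.5 and 73.9 CPM against 9.92, 8.06 and 10.4 CPM (7.05-fold, edgeR adjusted p = 0.034). In both genes the CD34-negative libraries lay close together and the CD34-positive ones spread more widely. Galnt6, which encodes an enzyme that starts mucin-type O-glycan chains, was at 81.1, 55.7 and 75 CPM against 9.42, 6.63 and 16 CPM (6.65-fold, edgeR adjusted p = 0.034). Sptssb encodes a small subunit of serine palmitoyltransferase, the enzyme that begins sphingolipid synthesis. It was at 93.5, 59.3 and 90.4 CPM against 14.9, 4.62 and 10.8 CPM (8.06-fold, edgeR adjusted p = 0.0429). Aspa, the gene of aspartoacylase, which releases acetate from N-acetylaspartate, averaged 17.9 ± 6.79 CPM against 1.74 ± 0.578 CPM (SD, n = 3 each), a 10.3-fold rise (edgeR adjusted p = 0.034).

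The remaining rises of the set were in surface and membrane proteins. Cyba, which encodes the p22phox subunit of NADPH oxidases, was at 10.4, 8.62 and 11.3 CPM against 1.35, 0.81 and 1.74 CPM (7.87-fold, edgeR adjusted p = 0.034). Nrp1, a co-receptor gene for VEGF and class 3 semaphorins, was at 9.2, 10.6 and 12 CPM against 0.921, 1 and 2.27 CPM (7.66-fold, edgeR adjusted p = 0.0443). Nt5e encodes CD73, an enzyme of the cell surface that makes adenosine from AMP. It was at 37.9, 23.6 and 18.7 CPM against 4.46, 3.53 and 4.23 CPM (6.57-fold, edgeR adjusted p = 0.034). The difference kept its direction in all 12 genes under each alternative tried, and the adjusted p ranged from 3.27e-29 to 0.295.

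**Figure D2:**
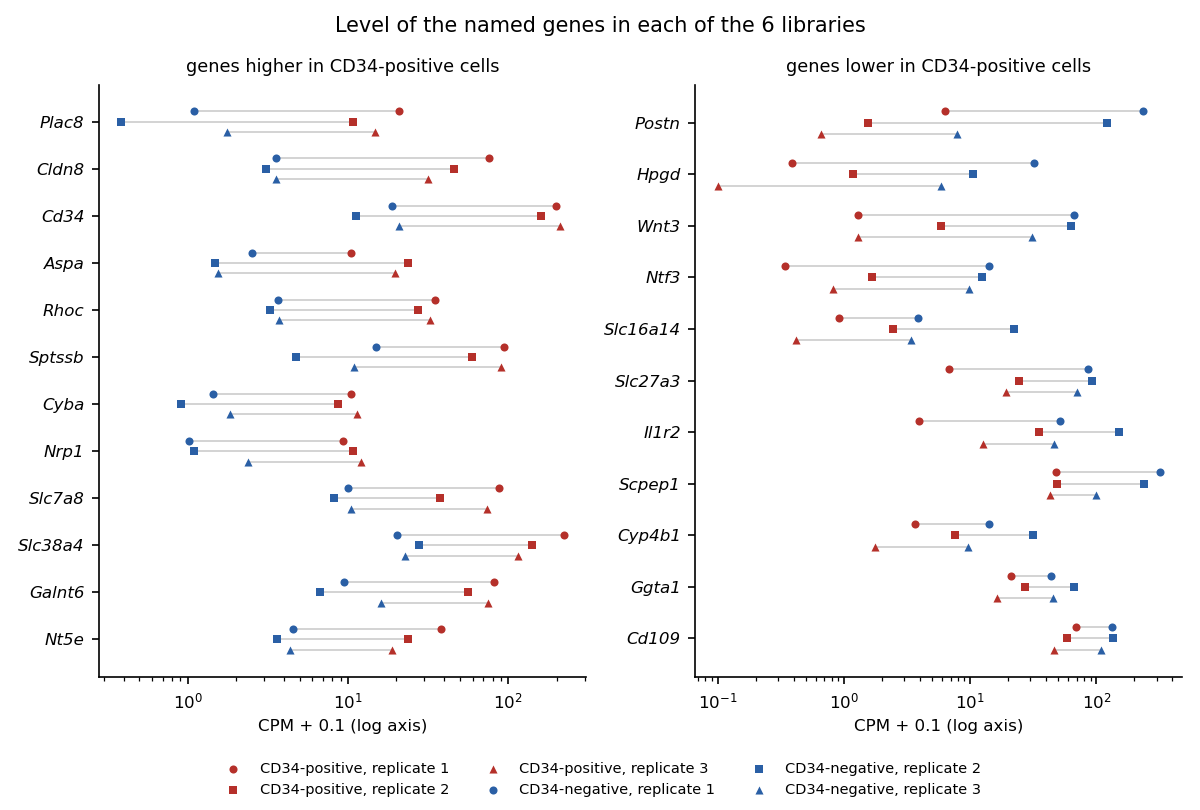
CPM plus 0.1 on a log axis of the 12 named genes that were higher and the 11 that were lower in CD34-positive cells. Each line joins the CD34-positive (red) and CD34-negative (blue) library of 1 replicate number. Red and blue do not overlap in any of these genes, and for Postn the CD34-negative replicate 3 (7.79 CPM) lies far below replicates 1 and 2 (235 and 121 CPM).

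The other 14 genes past the threshold included regulators of transcription and secreted factors. Twist1, the gene of a basic helix-loop-helix factor known for its part in epithelial-mesenchymal transition, was at 14.8, 9.41 and 14.2 CPM against 1.84, 2.53 and 2.8 CPM (5.37-fold, edgeR adjusted p = 0.0427). Snai3, of the Snail family of zinc finger factors, was at 13.5, 10.6 and 15.6 CPM against 2.83, 2.72 and 3.4 CPM (4.46-fold, edgeR adjusted p = 0.0429). Epgn encodes epigen, a ligand of the EGF receptor. It lay at 409, 357 and 302 CPM against 144, 87 and 90.4 CPM (3.32-fold, edgeR adjusted p = 0.0443). Lgals1, the gene of galectin-1, a lectin that binds beta-galactosides, was at 31, 75.5 and 39.7 CPM against 6.52, 9.82 and 8.39 CPM, a 5.91-fold rise (edgeR adjusted p = 0.0429).

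Rises of metabolic and membrane genes were seen in Fah, which encodes the last enzyme of tyrosine breakdown (3.43-fold), in Gdpd1, a glycerophosphodiesterase gene (7.65-fold), and in Emb, the gene of embigin, which escorts monocarboxylate transporters to the membrane (2.63-fold). Fah was at 127, 90.7 and 114 CPM against 26.9, 36.1 and 34.2 CPM. Pxdn, the gene of peroxidasin, which cross-links type IV collagen, rose 13.3-fold from a mean of 0.398 to 5.46 CPM. Sbsn, which encodes suprabasin of the differentiating epidermis, rose 2.49-fold (155, 133 and 129 CPM against 64.7, 48.9 and 54 CPM). Rbpms, an RNA-binding protein gene, rose 2.85-fold, Tmprss11e, a membrane serine protease gene, 5.12-fold, and the membrane protein gene Tmem98 4.66-fold. One further rise, of 4.27-fold, was in a gene the name table does not name (ENSMUSG00000078100). The adjusted p of these genes lay between 0.034 and 0.0443 (edgeR).

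Fgf13 (ENSMUSG00000031137) was the 1 gene that fell past the threshold without the block. It encodes a homologue of fibroblast growth factors that stays inside the cell. It lay at 0.193, 0.287 and 0.24 CPM in CD34-positive and at 2.83, 2.24 and 3.78 CPM in CD34-negative libraries, so it was low in both groups. The fall was 12.1-fold (log2 -3.59 ± 0.49 SE, edgeR adjusted p = 0.0429). It was too low in level for the naming rule and is named because it is the only fall.

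The 11 named lower genes passed only with the replicate block. Postn (ENSMUSG00000027750), which encodes the matricellular protein periostin, was at 6.21, 1.44 and 0.561 CPM in CD34-positive and at 235, 121 and 7.79 CPM in CD34-negative libraries. Every pair was lower in CD34-positive cells, but CD34-negative replicate 3 was not far above CD34-positive replicate 1 (edgeR, log2 -5.40 ± 1.23 SE, adjusted p = 0.137, and 0.0111 with the block). Hpgd, the gene of the enzyme that inactivates prostaglandins, was at 0.289, 1.08 and 0 CPM against 32.2, 10.4 and 5.82 CPM (edgeR adjusted p = 0.0867, and 0.0398 with the block). Scpep1, a serine carboxypeptidase gene, was at 48.1, 48.6 and 42.6 CPM against 318, 238 and 99.9 CPM (edgeR adjusted p = 0.0761, and 0.039 with the block).

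Ligand and receptor genes were among the lower genes too. Wnt3, which encodes a secreted ligand of the WNT pathway, was at 1.2, 5.82 and 1.2 CPM against 66.3, 63 and 30.6 CPM (log2 -4.30 ± 0.65 SE, edgeR adjusted p = 0.0501, and 0.0154 with the block). Ntf3, the gene of neurotrophin-3, was at 0.241, 1.58 and 0.721 CPM against 14.1, 12.4 and 9.68 CPM (edgeR adjusted p = 0.0501, and 0.0315 with the block). Both missed the threshold narrowly without the block. Il1r2, which encodes a decoy receptor for interleukin 1, was at 3.85, 35.3 and 12.5 CPM against 51.2, 152 and 45.7 CPM, with both high values in replicate 2 (edgeR adjusted p = 0.326, and 0.0389 with the block). The other named lower genes included Slc27a3, of the fatty acid transport protein family (log2 -2.30), and Cyp4b1, a cytochrome P450 gene (-2.10). Slc16a14, of the monocarboxylate transporter family, was at log2 -3.05. The last were Ggta1, which makes the alpha-galactosyl epitope of glycans (-1.27), and Cd109, a membrane-anchored binder of TGF-beta (-1.12). All 11 named lower genes kept their direction under each alternative tried, with adjusted p from 2.2e-23 to 0.718. Beside Fgf13, the block also called Cpxm2, Prlr (log2 -2.73), Ccl8 (-4.57), Chil4 (-4.58) and Cxcl10 (-1.52) as lower. Cpxm2, Prlr and Ccl8 were too low in level for the naming rule, and the groups overlapped in Chil4 and Cxcl10.

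The gene lists were read by their counts and medians beside those of all tested genes, of which 46.3% were higher in CD34-positive cells, the median log2 difference being -0.03. Without overlap of the groups 9.23% were higher. The lists and their members were chosen with earlier results of these data known, so their shares are not independent of the data. In all, 4 listed genes rose and none fell (edgeR), namely Cldn8, Sbsn, Twist1 and Nrp1. With the block 22 more listed genes passed, and over the alternatives their adjusted p ran from 2.2e-23 to 0.841. The members named below are among those with the smallest p of each list, except Slc7a11, Nfe2l2, Gsta3, Alox12b, Krt14, Nfatc1, Cxcl10 and Col4a1, which were chosen after their values were seen.

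**Figure D3:**
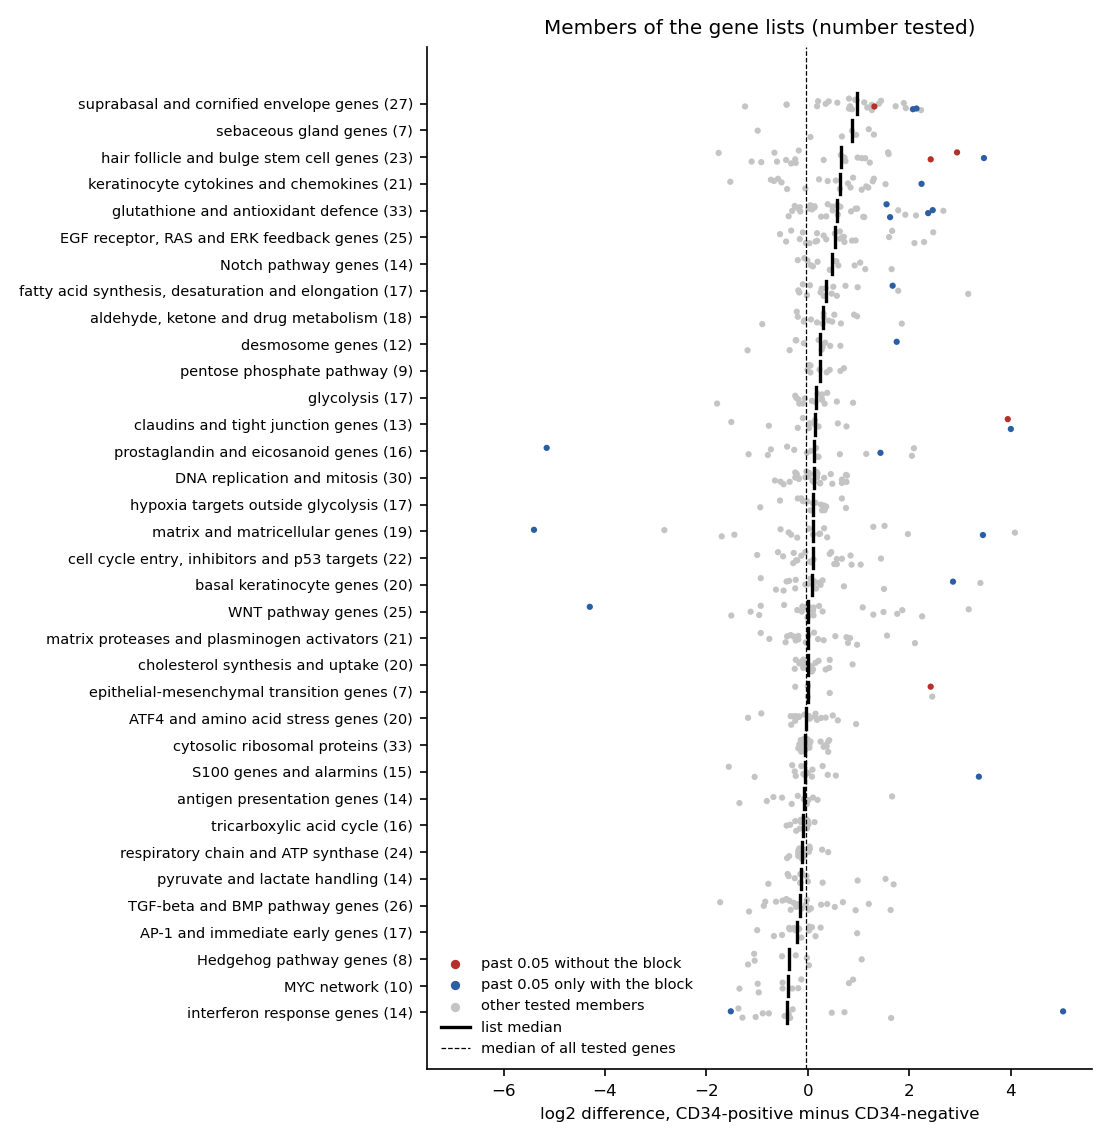
Log2 difference (horizontal) of each tested member of the gene lists, with the number tested in brackets. Thick bars are list medians, from 0.96 for suprabasal and cornified envelope genes to -0.42 for interferon response genes, and the dashed line is the median of all tested genes (-0.03). Red members passed 0.05 without the block and blue members only with it.

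Glutathione is the main small thiol that shields cells from peroxides and reactive drugs, and glutathione S-transferases couple it to such compounds. Of 33 tested genes of this defence, 27 were higher in CD34-positive cells (81.8%) and 10 were higher without overlap (9.23% of all tested genes were), with a median of 0.58. None passed without the block and 4 passed with it. Gsto1, an omega-class glutathione transferase gene, was at 15000, 8670 and 11200 CPM against 3810, 3340 and 4730 CPM (2.94-fold, edgeR adjusted p = 0.0845, and 0.0459 with the block). Gsta4, whose enzyme detoxifies lipid peroxidation products, was at 4770, 2840 and 4450 CPM against 1450, 947 and 1530 CPM (3.07-fold, edgeR adjusted p = 0.0845, and 0.0248 with the block). Gpx2, a glutathione peroxidase gene of epithelia, was at 775, 399 and 877 CPM against 190, 64.6 and 143 CPM (5.17-fold, edgeR adjusted p = 0.0845, and 0.0151 with the block). In each of the 3 genes replicate 2 was the lowest library of its group, and no CD34-negative library reached the lowest CD34-positive one. Slc7a11, which imports cystine for glutathione synthesis, was at 73.4, 9.27 and 42.5 CPM against 13.5, 2.34 and 6.96 CPM, so the groups overlapped although each pair was higher (edgeR adjusted p = 0.298, and 0.0152 with the block). Nfe2l2, the gene of NRF2, the factor that switches on many of these genes, was at 597, 326 and 351 CPM against 198, 296 and 212 CPM and did not pass in either fit (edgeR adjusted p = 0.298). Gclm, the modifier subunit of the enzyme that starts glutathione synthesis, averaged 516 ± 111 CPM against 264 ± 56.3 CPM (SD, n = 3 each, edgeR adjusted p = 0.166).

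NRF2 binds the antioxidant response element, whose core was searched as TGACNNNGC on both strands of the RefSeq promoter windows of build GRCm38.p6, 250 bases before to 50 after each gene start. A stretch can hold this core and the AP-1 site TGANTCA at the same bases. At least 1 core was found in 9 of 28 antioxidant genes with a window (32.1%), in 17.1% of the 9101 tested genes with a window, in 4 of 19 genes that rose (21.1%) and in 11 of 85 genes higher with the block (12.9%). The AP-1 site was found in 17.9%, 6.55%, 5.26% and 9.41% of the genes of these sets, in the same order. The antioxidant list was not drawn from these promoters or this comparison but holds known NRF2 targets, so its share says nothing of CD34-positive cells. The 250 bases before the start are shown for the antioxidant genes Gpx2, Gsto1 and Slc7a11, 3 of the 4 that passed with the block, and for Gclm and Gsta3, which hold a core, marked in capitals. No window was used for Gsta4.
Gpx2 (chr12:76795555-76795804, minus strand): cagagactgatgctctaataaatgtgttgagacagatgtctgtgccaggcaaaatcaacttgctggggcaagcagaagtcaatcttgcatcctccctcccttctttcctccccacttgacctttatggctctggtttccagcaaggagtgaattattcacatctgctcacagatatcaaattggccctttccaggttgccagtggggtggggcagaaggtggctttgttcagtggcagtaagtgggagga
Gsto1 (chr19:47854723-47854972, plus strand): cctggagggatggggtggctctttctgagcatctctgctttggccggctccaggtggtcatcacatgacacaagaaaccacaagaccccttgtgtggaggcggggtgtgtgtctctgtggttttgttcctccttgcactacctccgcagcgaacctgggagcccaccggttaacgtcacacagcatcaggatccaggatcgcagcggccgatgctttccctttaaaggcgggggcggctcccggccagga
Slc7a11 (chr3:50443614-50443863, minus strand): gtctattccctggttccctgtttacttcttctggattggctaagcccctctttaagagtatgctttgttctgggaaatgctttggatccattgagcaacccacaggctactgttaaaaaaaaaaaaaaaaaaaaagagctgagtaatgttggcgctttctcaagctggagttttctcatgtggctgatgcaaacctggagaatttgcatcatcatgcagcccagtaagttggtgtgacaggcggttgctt
Gclm (chr3:122245307-122245556, plus strand): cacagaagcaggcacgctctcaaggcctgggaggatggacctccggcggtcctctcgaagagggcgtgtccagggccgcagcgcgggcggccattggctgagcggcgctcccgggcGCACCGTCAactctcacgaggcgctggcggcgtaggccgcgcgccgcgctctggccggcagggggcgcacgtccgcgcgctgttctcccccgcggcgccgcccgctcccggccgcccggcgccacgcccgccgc
Gsta3 (chr1:21240335-21240584, plus strand): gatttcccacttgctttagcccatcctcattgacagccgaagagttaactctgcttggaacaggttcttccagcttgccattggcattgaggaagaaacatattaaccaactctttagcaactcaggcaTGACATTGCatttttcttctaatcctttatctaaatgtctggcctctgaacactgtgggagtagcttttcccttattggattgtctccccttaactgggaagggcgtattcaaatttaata
The core begins 134 bases before the start in Gclm, on the opposite strand, and 121 bases before it in Gsta3. Gsta3, an alpha-class glutathione transferase gene, was at 34, 3.16 and 22.3 CPM against 4.11, 2.43 and 2.87 CPM and did not pass in either fit (edgeR adjusted p = 0.216). No core lies in the windows of Gpx2, Gsto1 and Slc7a11. A match of letters is not a measured binding site.

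The pentose phosphate pathway supplies the NADPH that keeps glutathione reduced, and 8 of its 9 tested genes were higher, with a median of 0.23 and none past the threshold in either fit. G6pdx, its entry enzyme, was at 374, 209 and 317 CPM against 150, 186 and 217 CPM (edgeR adjusted p = 0.356). In glycolysis 10 of 17 genes were higher (median 0.15), and without overlap 2 were higher and 2 lower. Gpi1 averaged 483 ± 125 CPM against 261 ± 27.4 CPM (SD, n = 3 each). Slc2a3, a glucose transporter gene, was lower without overlap (log2 -1.79 ± 0.67 SE, edgeR adjusted p = 0.396). In the pyruvate and lactate list 5 of 14 genes were higher (median -0.13). Its member Ldha, which makes lactate from pyruvate, was at 8980, 4810 and 6550 CPM against 3330, 3500 and 3530 CPM without overlap (edgeR adjusted p = 0.214). Of the tricarboxylic acid cycle 3 of 16 genes were higher (median -0.10), and of the respiratory chain and ATP synthase 5 of 24 (median -0.12). None of the genes of these lists passed in either fit.

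Desaturases put double bonds into fatty acids. Of the fatty acid list 13 of 17 genes were higher, with a median of 0.35, and Fads3, a desaturase family gene, passed with the block. It lay at 123, 75.6 and 82.6 CPM against 33.4, 17.2 and 37.9 CPM (3.18-fold, edgeR adjusted p = 0.0882, and 0.0309 with the block). Its neighbours in function Fads1 and Fads2, the delta-5 and delta-6 desaturase genes, had log2 differences of 1.78 ± 0.44 and 3.16 ± 0.64 SE without overlap of the groups, and passed in neither fit. Of the cholesterol list 10 of 20 genes were higher, with a median of 0.00. Of 12 listed sebaceous gland genes 7 could be tested, and 6 of these were higher (median 0.87). Dgat2, which completes triglyceride synthesis, averaged 80.2 ± 9.68 CPM against 32.8 ± 9.76 CPM (SD, n = 3 each, edgeR adjusted p = 0.0845). Awat2, a wax synthesis gene named after its values were seen, was low and lay the other way in each pair. It was at 0.915, 0.215 and 0.4 CPM against 1.84, 0.667 and 0.68 CPM.

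Keratinocytes that leave the basal layer stop making basal keratins and build the cornified envelope. Of 27 tested suprabasal and cornified envelope genes, 24 were higher in CD34-positive cells (88.9%), 14 of them without overlap, and the median was 0.96, the highest of the pathway lists. Sbsn rose, and Krt17 and Alox12b passed with the block. Krt17, a keratin gene of hair follicles and of stressed epidermis, was at 13400, 5920 and 11300 CPM against 2260, 2300 and 2740 CPM (4.2-fold, edgeR adjusted p = 0.0553, and 0.0331 with the block). Alox12b, whose lipoxygenase serves the skin barrier, was at 47.7, 22.2 and 47.2 CPM against 14.4, 2.43 and 9.83 CPM (edgeR adjusted p = 0.22, and 0.0283 with the block). Both genes were lowest in replicate 2 among the CD34-positive libraries. Krt1 and Krt10, the main keratin genes of the suprabasal layers, lay on the other side of 0 and are named after their values were seen. Krt1 was at 520, 2950 and 1240 CPM against 806, 3740 and 1810 CPM, lower in each pair (log2 -0.42 ± 0.66 SE, edgeR adjusted p = 0.925). Krt10 was at 511, 3600 and 1110 CPM against 1220, 3490 and 2320 CPM, lower in pairs 1 and 3 (log2 -0.42 ± 0.65 SE, edgeR adjusted p = 0.921). The groups overlapped in both keratins, and the sign turned without CD34-negative replicate 2 for Krt1 (0.27) and without CD34-positive replicate 1 for Krt10 (0.02). Of the basal keratinocyte list 12 of 20 genes were higher (median 0.08), and Krt14 was at 60500, 53200 and 42800 CPM against 73700, 60600 and 67700 CPM (log2 -0.37 ± 0.27 SE, edgeR adjusted p = 0.768). Pitx1, a homeobox factor gene counted with the basal list, was at 138, 13.3 and 47.9 CPM against 13.7, 1.72 and 12.1 CPM and passed with the block only (edgeR adjusted p = 0.298, and 0.0165 with it).

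Claudins seal tight junctions, and desmocollins and desmogleins hold desmosomes together. Of 13 tested claudin and tight junction genes 9 were higher (median 0.14), with Cldn8 past the threshold and Cldn17 past it with the block (5.83, 7.76 and 20.3 CPM against 0.779, 0.143 and 1.29 CPM, edgeR adjusted p = 0.0882, and 0.0283 with the block). Of 12 desmosome genes 7 were higher. Dsc2, a desmocollin gene, was at 244, 104 and 201 CPM against 52.4, 35 and 75.6 CPM (edgeR adjusted p = 0.117, and 0.0246 with the block). Dsg2, the desmoglein gene typical of simple and basal epithelium, lay on the other side at 10.1, 11.1 and 9.93 CPM against 27.6, 21.8 and 21.9 CPM (edgeR adjusted p = 0.0845, and 0.0927 with the block).

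Of 23 tested hair follicle and bulge genes, 13 were higher (56.5%), 10 of them without overlap, and the median was 0.65. Nrp1 and Twist1 rose, and Foxe1, a forkhead factor gene of the follicle, passed with the block at 51.1, 11.9 and 35.5 CPM against 4.53, 1.14 and 3.33 CPM (11.1-fold, edgeR adjusted p = 0.0845, and 0.0111 with it). Foxc1, a forkhead factor gene linked to bulge stem cell quiescence, was at 17.8, 8.84 and 7.53 CPM against 3.68, 4.1 and 3.55 CPM (edgeR adjusted p = 0.146). Nfatc1, another factor gene of bulge quiescence, lay the other way at 22.7, 12.4 and 14.1 CPM against 33.4, 31.9 and 41.4 CPM (edgeR adjusted p = 0.162). Members known from the same compartment thus differed in sign.

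Among signalling lists, 13 of 25 WNT genes were higher (median 0.01), and only Wnt3, with the block, passed. Wnt4 was at 160, 207 and 184 CPM against 422, 305 and 348 CPM, whereas Wnt5a was at 70.7, 35.1 and 40.5 CPM against 15.7, 22 and 22.3 CPM, and neither passed. Of 25 genes of EGF receptor signalling and ERK feedback, 19 were higher (76.0%), 9 of them without overlap, with a median of 0.53 and none past the threshold in either fit. The ligand gene Epgn, which rose (3.32-fold), is not in this list. Ereg, the gene of the EGF receptor ligand epiregulin, came nearest among the listed genes at 164, 69.2 and 67.2 CPM against 20.3, 21.8 and 28 CPM (edgeR adjusted p = 0.079, and 0.0545 with the block). Areg, the gene of amphiregulin, was at 767, 294 and 258 CPM against 127, 141 and 147 CPM, and Dusp5, an ERK phosphatase gene, at 73.9, 32 and 55.8 CPM against 12.8, 23.1 and 17.6 CPM. In all 3 genes CD34-positive replicate 1 was the highest library. Of 14 Notch genes 11 were higher (median 0.48), of 26 TGF-beta and BMP genes 10 (median -0.16) and of 8 Hedgehog genes 2 (median -0.38), with no call in either fit.

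Inflammatory and matrix genes gave calls in both directions with the block. Lif, a cytokine gene, was at 10.1, 18.4 and 11.6 CPM against 1.77, 5 and 1.59 CPM (edgeR adjusted p = 0.12, and 0.03 with the block). Slpi, which encodes a secreted inhibitor of leukocyte proteases, was at 1900, 1850 and 7950 CPM against 513, 100 and 525 CPM (edgeR adjusted p = 0.149, and 0.0351 with the block). Ptgr1, a prostaglandin reductase gene, was higher by log2 1.43 ± 0.26 SE and passed with the block. Its sign was opposite to that of Hpgd in the same eicosanoid list. Interferon response genes were higher in 4 of 14 (median -0.42). Within that list Oasl1, at 1.93, 4.38 and 2.24 CPM against 0.0709, 0.143 and 0 CPM, and Cxcl10, at 22.6, 36.2 and 4.08 CPM against 77.9, 82 and 20 CPM, passed with the block in opposite directions. Of 19 matrix genes 11 were higher (median 0.10). Postn and Col4a1, a chain of basement membrane collagen, passed with the block on opposite sides of 0. Spp1, the gene of osteopontin, was at 29.7, 16.9 and 128 CPM against 6.87, 0.858 and 2.87 CPM and passed in neither fit (edgeR adjusted p = 0.144, and 0.0507 with the block).

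Lists of growth and protein synthesis gave no call. Of 30 genes of DNA replication and mitosis 19 were higher (median 0.11), and Cdk1, the kinase gene of mitotic entry, averaged 232 ± 10.8 CPM against 146 ± 39.4 CPM (SD, n = 3 each, edgeR adjusted p = 0.323). Of 33 cytosolic ribosomal protein genes 12 were higher (median -0.05), of 17 AP-1 and immediate early genes 6 (median -0.21), and of 10 MYC network genes 2 (median -0.40). No member of these lists passed in either fit. The same held for pyruvate and lactate handling (5 of 14 higher), hypoxia targets (10 of 17), cell cycle entry and p53 targets (13 of 22), matrix proteases (11 of 21), antigen presentation (4 of 14), ATF4 and amino acid stress genes (10 of 20) and drug metabolism (13 of 18). Of 7 tested genes of epithelial-mesenchymal transition 4 were higher, and only Twist1 passed.

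Genes of retinoid and fatty acid binding were among those that passed with the block. They belong to no list and were chosen after their values were seen. Stra6, which encodes a membrane receptor for vitamin A uptake, was at 77.4, 37.1 and 83.9 CPM against 11.7, 2.62 and 13.6 CPM. Crabp2, which encodes a carrier of retinoic acid inside the cell, averaged 895 ± 179 CPM against 266 ± 166 CPM (SD, n = 3 each). Fabp4, the gene of a fatty acid carrier of adipocytes, macrophages and endothelium, was at 64.3, 312 and 275 CPM against 5.88, 5.43 and 22.2 CPM. Their adjusted p lay between 0.0845 and 0.147 without the block, between 0.0152 and 0.03 with it, and between 2.06e-15 and 0.4 over the alternatives (edgeR, and DESeq2 for 1 alternative).

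Endothelial cells also carry CD34 and a6, and their markers were followed for that reason. The 15 endothelial markers summed to 29.8, 19.8 and 89.5 CPM in CD34-positive and to 14.3, 6.53 and 15.1 CPM in CD34-negative libraries, without overlap. Of the 6 that were tested all were higher, with a median log2 difference of 1.80. However, a member could pass the filter on low counts through its level in 1 group alone. Plvap, of endothelial fenestrae, was at 3.51, 4.74 and 38.3 CPM against 0.496, 0 and 1.36 CPM, and Emcn, of endothelial mucin, at 1.44, 0.862 and 7.69 CPM against 0, 0.0477 and 0.378 CPM. Both passed with the block only (edgeR adjusted p = 0.216 and 0.198, and 0.0411 and 0.034 with the block). Over the alternatives the adjusted p of the 6 tested markers ran from 0.000234 to 1, and CD34-positive replicate 3 was the highest library in each. Cdh5, the defining cadherin gene of endothelium, was at 0.144, 0 and 0.32 CPM against 0 CPM in all 3 CD34-negative libraries. Nrp1, Col4a1, Fabp4 and Lgals1, which endothelial cells are known to express, moved in the same direction as these markers, and the part of endothelial RNA in their differences was not tested. In the CD34-positive libraries Col4a1 was at 4.04, 1.29 and 7.45 CPM and Nrp1 at 9.2, 10.6 and 12 CPM. Fabp4 was at 64.3, 312 and 275 CPM there, and Lgals1 at 31, 75.5 and 39.7 CPM. In bulk RNA of this kind, fewer cells of a type and less RNA per cell cannot be told apart.

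Of the other cell types, pericyte and smooth muscle markers summed to 66.5, 172 and 80.4 CPM against 44.1, 79 and 54.4 CPM, and macrophage and dendritic cell markers to 25, 84.8 and 39.2 CPM against 113, 18.7 and 15 CPM. The groups overlapped in both, while the pericyte and smooth muscle sum was higher in CD34-positive cells in each of the 3 pairs. Most of that sum was Acta2, a smooth muscle actin gene, at 53, 161 and 69.7 CPM against 36.7, 64 and 38.1 CPM. Of its 3 tested members 2 were higher, and Cspg4 was lower (log2 -1.27 ± 0.42 SE, edgeR adjusted p = 0.326). Melanocyte and Schwann cell markers summed to 6.79, 3.81 and 2.08 CPM against 1.28, 1.43 and 1.89 CPM without overlap. Pmel, of the melanosome, was the 1 of these 10 markers that could be tested, at 2.89, 1.87 and 1.36 CPM against 0.779, 0.477 and 1.29 CPM (edgeR adjusted p = 0.451). Fibroblast markers summed to 1.3, 11.8 and 14.3 CPM against 4.96, 5.67 and 2.57 CPM, of which Pdpn, a gene that keratinocytes also express, gave 1.11, 11.8 and 14 CPM in the CD34-positive libraries. The part of RNA from these cell types in the differences was not tested.

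**Figure D4:**
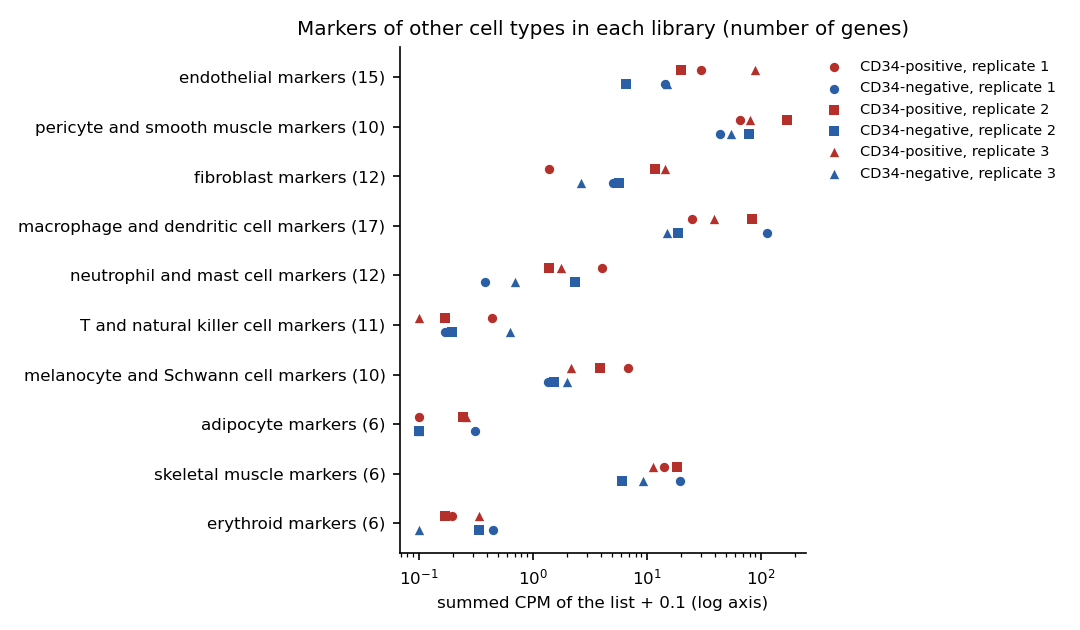
Summed CPM plus 0.1 (log axis) of the marker lists of other cell types in each of the 6 libraries, with the number of genes in brackets. Endothelial markers lie at 19.8 to 89.5 CPM in the CD34-positive (red) and at 6.53 to 15.1 CPM in the CD34-negative (blue) libraries, while the macrophage and dendritic cell markers overlap.

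The same contrast was available in the 4 a6-high libraries labelled KO, 2 per CD34 class. Sirt6 itself was at 6.81 and 5.09 CPM in the CD34-positive and at 8.68 and 6.92 CPM in the CD34-negative libraries labelled KO, against 4.39 to 9.48 CPM in the 6 WT libraries. The counts cover the whole gene, so they do not check that label. All 25 genes that rose in WT cells were higher in both same-numbered KO pairs, and Fgf13 was lower in both. Over all tested genes 31.9% were higher and 36.3% lower in both KO pairs. Of the 110 genes higher with the block 106 were higher in both KO pairs, and of the 17 lower genes 16 were lower in both. The other 5 differed in sign between the KO pairs. Across genes, which are not independent replicates, the WT difference and the mean KO difference correlated with Pearson r of 0.689. The 2 are unlike measures, from edgeR for WT and from CPM plus 0.5 for KO.

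Individual genes kept their pattern to different degrees. Cldn8 was at 98.4 and 40.2 CPM in CD34-positive and at 10.4 and 9.25 CPM in CD34-negative libraries labelled KO. Postn was at 1.03 and 8.72 CPM against 267 and 231 CPM there, and Wnt3 at 0.257 and 1.7 CPM against 23.9 and 18.3 CPM. Plac8 was much lower in these libraries than in WT CD34-positive cells, at 4.92 and 1.28 CPM against 0.848 and 0 CPM, and Twist1 was at 1.71 and 5.18 CPM against 0.0771 and 0.661 CPM. Fgf13 was at 0.257 and 2.06 CPM against 0.617 and 3.17 CPM, with more spread between the KO pairs than between the CD34 classes.

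**Figure D5:**
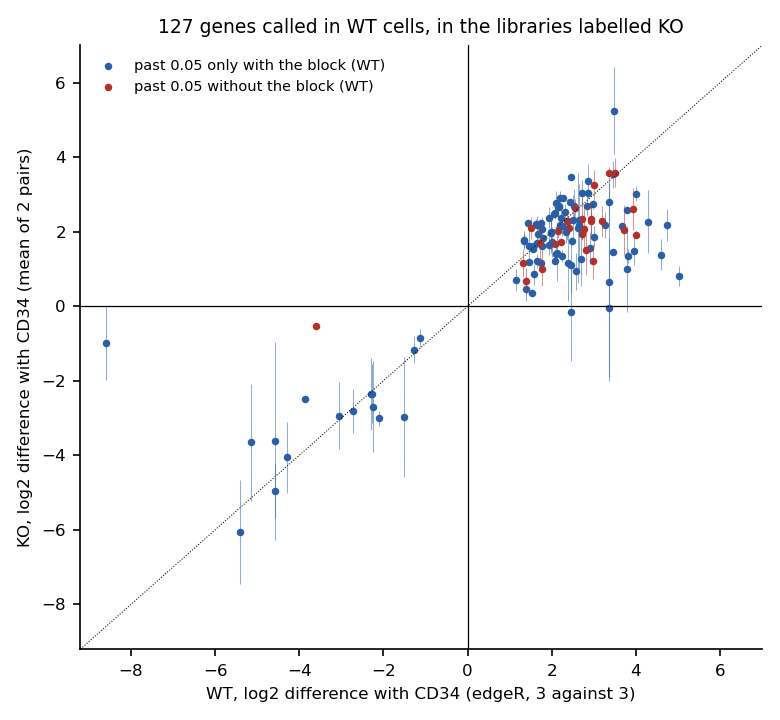
Log2 difference, CD34-positive minus CD34-negative, within a6-high cells in WT libraries (horizontal) and in the libraries labelled KO (vertical, mean of the 2 same-numbered pairs of CPM plus 0.5, with a line from the lower to the higher pair) for the 127 genes called in WT cells. The axes are unlike measures (edgeR for WT), and adding 0.5 shrinks the KO difference of genes low in level. Distance from the dotted diagonal therefore does not compare the genotypes. Of the 110 higher genes 106 lie above 0 in both KO pairs.

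Whether the difference with CD34 itself differed between WT and KO was tested in 1 fit of the 10 a6-high libraries. Of 14214 genes none passed in edgeR (0%, smallest adjusted p = 1), nor with the block. An unadjusted p under 0.05 was reached by 173 genes (1.22%), and 1 gene was called by DESeq2. With 2 KO libraries per class such a test has little precision, so it does not show that the genotypes act alike. The 5 smallest p belonged to Bgn (difference of the log2 differences, WT minus KO, 5.59 ± 1.13 SE), Mill1 (3.08 ± 0.70), Chn2 (2.47 ± 0.63), Abcc3 (-1.17 ± 0.30) and Parm1 (2.10 ± 0.57). Bgn encodes the matrix proteoglycan biglycan. It was at 1.3, 1.08 and 1.2 CPM in CD34-positive and at 0.354, 0.763 and 0.0756 CPM in CD34-negative WT libraries, and at 0.77 and 1.28 CPM against 5.51 and 30 CPM in those labelled KO. The CD34-negative libraries labelled KO, most of all replicate 2, were the high ones.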

How the data were processed

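RNA of sorted tumour cells was copied with a SMART-Seq v4 kit, which does not mark strand, per the labels' protocols. The authors deposited raw counts, whole numbers per Ensembl gene, with no normalization. The submitters' processing notes list mm9, HTSeq 0.6.0, STAR 2.3.0 and Picard 1.100 without their roles. Which annotation release was counted is not stated. Summary lines of the counter, which are no genes, were dropped (reads aligned to several places 30.72% to 32.70% of records in the 6 libraries, reads outside genes 2.61% to 4.18%), so genes with near-identical copies, and overlapping antisense genes, are uncertain. Names came from GENCODE M21 and a name table, of another build, and served for names only. The test was that of edgeR 4.0.16 under R 4.3.3 (TMM, filterByExpr by group, quasi-likelihood F test, Benjamini-Hochberg adjustment at 0.05) on the 6 WT a6-high libraries, and DESeq2 1.42.0 was an alternative. SE values come from the F statistic. CPM used TMM over all 15 libraries. Deviations from the group means correlated by 0.174, 0.149 and 0.356 between same-numbered libraries, above 0.1 in each, and by -0.247 to 0.045 between others, so equal numbers were treated as pairs. The labels do not state this pairing, which rests on these correlations. Deviations from a group mean cancel out within the group, so the lower values between other libraries are no separate evidence for it. No 2 libraries were repeats (chi-square per degree of freedom 38.5 to 112 within groups).

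Named genes are Cd34 and Itga6, then, among genes past 0.05 whose groups did not overlap, that have a name and a mean logCPM of 2 or more, the 12 largest rises and 12 largest falls, places being filled from the fit with the block, which gave 11 falls, then the 2 to 4 members of each of 45 lists with the smallest p, not all of which are printed. Members and lists were chosen with earlier results of these data known. Counts were simulated with 200 changed genes among 12413 and with no effect of the pair. The test without the block found 18% of genes set to 2-fold and 69% of those set to 4-fold, with 5 false calls among 92. With the block it found 16% and 68%, with 9 false calls among 93. Alternatives were other scaling, filters, tests and sets of libraries, the block, leaving out each library and, chosen after seeing the data, a term for the 2 libraries with more reads outside genes.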

Additional observations from a re-analysis of the deposited data

How the results depend on the processing

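The 26 genes called kept their direction in every alternative in which they were tested, and the number of alternatives in which a gene passed ran from 6 to 15 of 16 or 17. The count of genes past the threshold (26, 25 higher and 1 lower, 4 of them listed) moved more. DESeq2 called 377 (302 higher and 75 lower, 80.1% higher against 96.2%, 71 listed), no filter on low counts 195 (168, 27 and 41), the fit of all 15 libraries 6 (6, 0 and 2) and the fit of the 10 a6-high libraries 12 (11, 1 and 2). DESeq2 size factors in edgeR gave 35 with 3 lower, and the 10 CPM filter 29. With the replicate block 127 passed (110, 17 and 26). With the block and without pair 1, 2 or 3 the count was 405 (312, 93 and 79), 28 (24, 4 and 7) or 301 (210, 91 and 47). With a term for the 2 libraries with more reads outside genes it was 6 (6, 0 and 1). Leaving out 1 library gave 0 to 19 genes (0 to 18 higher, 0 to 2 lower, 0 to 4 listed), the lowest without CD34-negative replicate 1. The WT minus KO count of 0 became 1 with DESeq2 and 48 with no filter, and was 0 with the block and without each library. Itga6 (log2 -0.05) ran from -0.36 to 0.17 when 1 library was left out (0.17 without CD34-positive replicate 3, 0.03 without CD34-negative replicate 2) and was 0.13 with the block and without pair 3. When 1 library was left out Krt1 (log2 -0.42) ran from -1.24 to 0.27 and Krt10 (-0.42) from -1.51 to 0.02. Among the genes named in the text, the block changed no call but those given beside it. Many of the genes that passed only with the block are not named. The cause of these shifts was not tested. On simulated counts of this size and depth 18% of 2-fold changes were recovered, and other depths were not tried.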
